A study of Mus musculus with 17 samples.

Results

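The genes described here are 37 members of the hypoxia response and of glycolysis, followed in whole embryonic mouse kidneys in which beta-catenin was made active in the stroma or in the nephron progenitors. They were taken by name from a table of 24432 gene IDs and had to reach 1 FPKM (fragments per kilobase of transcript, scaled to the number of mapped fragments) in at least 3 of 17 libraries. All 37 were found and kept, out of 14014 IDs kept in all. Kidneys were dissected at E12.5 from mice of mixed strain. In 5 libraries the genotype was Ctnnb1-delta3 c/+;Foxd1, in which Cre expressed in the Foxd1 lineage (kidney stroma) removes exon 3 of 1 Ctnnb1 allele so that beta-catenin is not degraded; these are called Foxd1-Cre. In 3 libraries the genotype was Ctnnb1-delta3 c/+;Six2, with the same allele recombined in the Six2 lineage (nephron progenitors), called Six2-Cre. The other 9 libraries were Wild-type, with neither the allele nor a Cre listed, and whether any library pooled several kidneys is not given in the sources used here. Because RNA came from whole kidneys, lineages that do not express the Cre contribute to every value, and fewer cells of a type cannot be told apart from less RNA per cell. The labels do not say that libraries of one group came from separate embryos, so p-values measure the spread between these libraries, which may be technical.

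When oxygen is scarce, the alpha subunits of hypoxia-inducible factor (HIF), made by Hif1a and Epas1, escape hydroxylation by the EGLN prolyl hydroxylases, pair with ARNT and switch on target genes through a short DNA element. Many of these targets encode glucose transporters and enzymes of glycolysis, the route from glucose to pyruvate, together with enzymes that turn pyruvate into lactate and keep it out of the mitochondria. HIF is itself controlled at the protein level, so the RNA of Hif1a does not measure its activity. In the developing kidney the early tissue is poorly vascularised, nephron progenitors are known for their high rate of glycolysis, and Vegfa draws in the vessels.

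By the number of gene IDs at 0 the 17 libraries formed 2 sets, for which the labels give no name. Between 5312 and 5807 IDs were at 0 in Foxd1-Cre and in wild types 1 to 6, and between 7590 and 7891 in Six2-Cre and in wild types 7 to 9. Read counts were not used here, but the smallest step between values showed that 1 read on a transcript of 1 kilobase was worth 0.0242 to 0.0315 FPKM in the first set and 0.156 to 0.172 FPKM in the second, so low values are less precise for Six2-Cre. Each mutant was therefore set only against the wild types of its own set, and levels are not compared across the sets; the mutants share no control library. Of 10 Wnt target genes 9 rose in Foxd1-Cre kidneys, against 8.45% of all genes tested. In Six2-Cre kidneys 6 of the 10 rose and 1 fell, against 7.93% and 5.84% of all genes. A whole-gene value of Ctnnb1 cannot show the loss of exon 3, so it was not used to check the genotypes. Markers of nephron progenitors, cortical stroma and ureteric bud were above 0 in all 4 groups.

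Some values are uncertain because other genes could share their reads. Eno1, Gapdh and Pgam1 have near-identical copies (at least 95.0% identity over at least 500 bases) that hold values of their own in the table: Eno1b, Pgam1-ps2 and 7 Gapdh-like rows. Pgam1-ps2 was listed at a mean of 5867 FPKM in wild types 1 to 6, far above Pgam1 itself at 335 ± 18.3 FPKM (SD, n = 6), so the division of reads between this pair is not a measure of which gene was expressed. A further 6 members (Bnip3, Bnip3l, Gpi1, Ldha, Pgk1 and Pkm) have such copies in the annotation, with no row here. The annotation also places other genes over, or antisense to, Hif1a, Epas1, Slc2a1, Slc2a3, Hk1, Hk2, Gpi1, Pfkm, Pfkp, Pfkfb3, Aldoa, Tpi1, Gapdh, Pkm, Bnip3, Ndrg1, Adm, Ankrd37 and Higd1a. These overlaps are between whole gene spans, introns included, and need not lie in sequence that both transcripts hold. At the same identity and length, transcript sequence was shared with such a partner for Pfkp (Pitrm1, 748 bases) and Higd1a (Gm47112, 683 bases, with no row here). Counting by strand is not stated, so reads from shared sequence cannot be told apart. For the other members with a partner, sharing of reads with it was not shown.

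HIF binds the letters ACGTG or GCGTG, the core of its response element, and promoters of members that moved together are shown here for that reason. RefSeq windows of 250 bases before the transcription start (GRCm38.p6) were matched for 33 of the 37 members; Bnip3l, Epas1, Ndrg1 and Slc2a3 were not matched. The first 3 sequences belong to the members that rose in both mutants, the next is the member with the largest rise in Foxd1-Cre kidneys, and the last rose in Foxd1-Cre kidneys and holds no match. Each runs 5′ to 3′ along the gene's strand and ends just before the start site. Capitals mark ACGTG or GCGTG on either strand (CACGT or CACGC when read on the opposite one). Matches that overlap are each counted, so CACGTG counts as 2.
Bnip3: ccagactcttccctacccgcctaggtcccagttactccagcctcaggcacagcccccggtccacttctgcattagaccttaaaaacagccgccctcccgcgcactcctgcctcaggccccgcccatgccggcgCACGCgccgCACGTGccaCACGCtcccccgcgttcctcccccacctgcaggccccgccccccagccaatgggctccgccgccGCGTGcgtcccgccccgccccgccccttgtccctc
P4ha1: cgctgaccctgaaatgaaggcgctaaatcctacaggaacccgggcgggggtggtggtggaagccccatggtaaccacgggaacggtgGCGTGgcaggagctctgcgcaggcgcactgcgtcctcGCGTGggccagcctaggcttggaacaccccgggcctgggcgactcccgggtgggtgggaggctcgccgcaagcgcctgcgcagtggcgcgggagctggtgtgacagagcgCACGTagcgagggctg
P4ha2: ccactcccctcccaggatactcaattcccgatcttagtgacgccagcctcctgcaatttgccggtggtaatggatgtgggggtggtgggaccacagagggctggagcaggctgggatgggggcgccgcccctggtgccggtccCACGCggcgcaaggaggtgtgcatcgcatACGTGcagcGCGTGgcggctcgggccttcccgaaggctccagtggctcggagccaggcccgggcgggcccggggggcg
Slc16a3: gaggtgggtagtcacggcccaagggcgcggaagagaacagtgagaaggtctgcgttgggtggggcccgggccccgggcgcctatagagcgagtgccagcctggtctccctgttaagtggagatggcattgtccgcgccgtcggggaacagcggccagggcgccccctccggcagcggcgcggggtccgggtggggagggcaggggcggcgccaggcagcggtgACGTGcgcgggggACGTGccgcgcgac
Gpi1: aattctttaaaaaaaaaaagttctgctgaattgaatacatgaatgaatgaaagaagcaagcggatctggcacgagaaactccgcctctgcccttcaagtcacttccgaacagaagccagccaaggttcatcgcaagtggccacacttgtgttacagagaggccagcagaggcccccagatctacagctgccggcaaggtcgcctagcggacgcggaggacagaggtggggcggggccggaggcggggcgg
The windows lie at chr7:138909507-138909756 (minus strand) for Bnip3, with 5 matches; chr10:59323046-59323295 (plus strand) for P4ha1, with 3; chr11:54100674-54100923 (plus strand) for P4ha2, with 3; chr11:120948817-120949066 (plus strand) for Slc16a3, with 2; and chr7:34230337-34230586 (minus strand) for Gpi1, with 0. At least 1 window held a match in 30 of the 33 members (90.9%), against 61.4% of the 10429 matched genes that passed the same expression filter. The share was 41.5% over 27025 gene symbols with a window, whether or not they had a value here. Some genes have several windows. Counted by window, 77.6% of the members' 49 windows held a match, against 55.3% of 13364 for genes that passed the filter. Tpi1, Gpi1 and Eno2 were the members without one. Among members that rose in Foxd1-Cre kidneys 18 of 20 held a match, and among those not called 12 of 13 did. A match is a description of the letters and not a binding site, and a window without one says nothing of the factor.

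More members were called in Foxd1-Cre than in Six2-Cre kidneys. The Six2-Cre comparison has fewer libraries and less precise low values, so these counts do not measure a difference between the mutants. In Foxd1-Cre kidneys 22 of 37 (59.5%) were higher by limma at an adjusted p under 0.05, against 8.45% of all 13996 genes tested, and 0 were lower (0 also at an unadjusted p under 0.05), against 4.82%. All 37 log2 changes were above 0, as were 47.0% of all genes, and the median change was 0.28 for the members and -0.01 for all genes, on the log2(FPKM + 1) scale. In 19 members every mutant library lay above every wild type (6.89% of all genes), and in 0 every mutant lay below (3.8%). The rises were moderate: the ratio of group means ran up to 1.92 (Slc16a3).

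In Six2-Cre kidneys 5 of 37 members (13.5%) rose, against 7.93% of 13828 genes, and 0 fell, against 5.84% (1 member, Gapdh, was lower at an unadjusted p under 0.05). The 5 were the regulators Epas1 and Egln3, the mitophagy gene Bnip3 and the collagen prolyl hydroxylases P4ha1 and P4ha2. Changes were above 0 for 27 of 37 members (48.2% of all genes), with a median of 0.13 against -0.01. The mutants lay wholly above their wild types in 15 members (18.0% of all genes) and wholly below in 1, Gapdh (17.7%). At an unadjusted p under 0.05 there were 14 members in Six2-Cre kidneys, 1 of them lower, and 31 in Foxd1-Cre kidneys. The share of all genes at that threshold is not given here, so these counts are no result about the members.

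**Figure D1:**
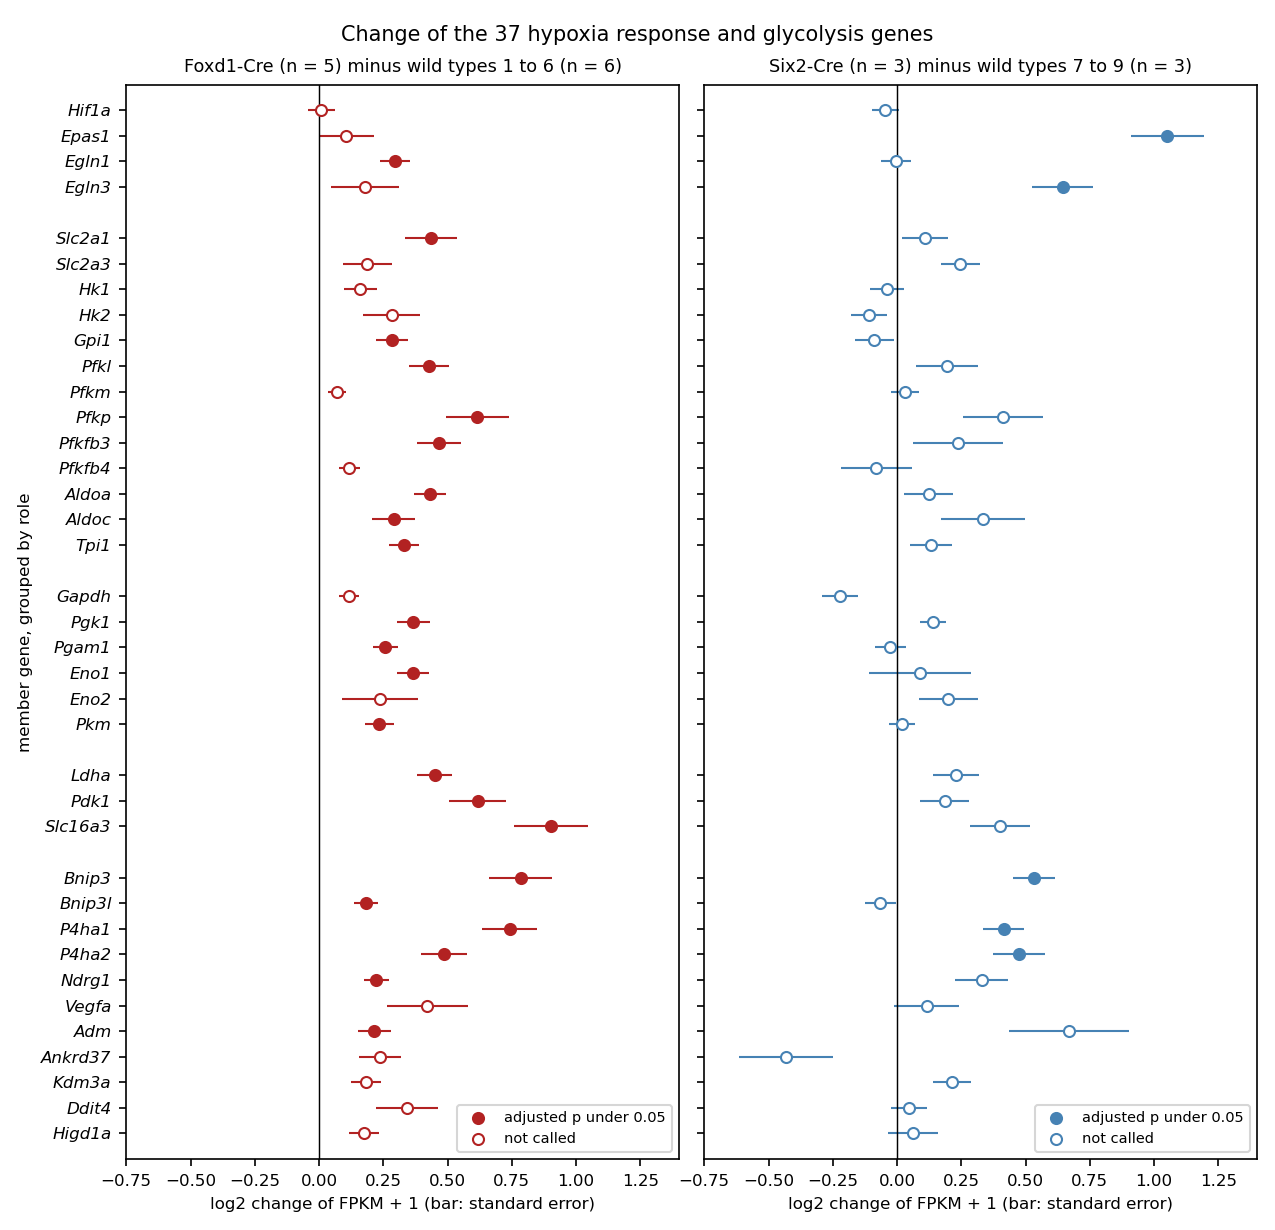
Change of each of the 37 members on the log2(FPKM + 1) scale, in Foxd1-Cre against wild types 1 to 6 (left) and in Six2-Cre against wild types 7 to 9 (right), grouped by role; points are limma's changes, bars their standard errors, filled points have an adjusted p under 0.05. On the left all 37 points are above 0 and 22 are filled; on the right 5 are filled, with Epas1 farthest to the right at 1.05.

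The regulators moved little in Foxd1-Cre kidneys, apart from Egln1. Hif1a (ENSMUSG00000021109, chromosome 12, 73901375 to 73947530, GRCm38), the main HIF alpha subunit, was at 47.1, 49.9, 50.7, 47.6 and 45.5 FPKM in Foxd1-Cre replicates 1 to 5, against 42.2 (lowest), 49.3 (median) and 51.2 (highest) in wild types 1 to 6. It was at 60.2, 66.1 and 62.8 FPKM in Six2-Cre replicates 1 to 3 and 62.1, 67.5 and 65.7 in wild types 7 to 9. Both mutants overlapped their wild types, and neither change passed the test (Foxd1-Cre 0.01 ± 0.05, SE, limma adjusted p = 0.934; Six2-Cre -0.05 ± 0.05, adjusted p = 0.613).

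Epas1 (ENSMUSG00000024140, chromosome 17, 86753700 to 86833410), which encodes HIF-2 alpha and is known for its expression in endothelial cells, separated the Six2-Cre libraries completely. It was at 13.2, 12.45 and 14.8 FPKM there and at 5.21, 5.35 and 7.57 in their wild types, a change of 1.05 ± 0.14 (adjusted p = 0.00702). In Foxd1-Cre kidneys it was at 3.27, 3.89, 5.30, 4.47 and 4.36 FPKM against 3.05 (lowest), 3.94 (median) and 4.58 (highest), which overlap (change 0.11 ± 0.11, adjusted p = 0.599). The Six2-Cre call held without any 1 library. All 9 endothelial markers rose in the Six2-Cre libraries too, with a summed level of 190.0 to 200.1 FPKM against 91.3 to 110.9, and none was at 0; in Foxd1-Cre kidneys 3 of 9 rose, with 139.6 to 184.7 FPKM against 118.8 to 155.1. The part of endothelial cells in the result for Epas1 was not tested.

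Egln1 (ENSMUSG00000031987, chromosome 8, 124908587 to 124949324), the main oxygen-sensing hydroxylase of HIF and itself a HIF target, was at 34.6, 42.8, 34.5, 34.5 and 36.9 FPKM in Foxd1-Cre libraries against 27.7 (lowest), 29.9 (median) and 31.1 (highest) in wild types. Every mutant lay above every wild type, and the change was 0.29 ± 0.06 (adjusted p = 0.00487). In Six2-Cre kidneys Egln1 was at 28.9, 27.2 and 25.6 FPKM against 27.1, 28.1 and 26.7, with the groups overlapping (change -0.00 ± 0.06, adjusted p = 0.975). Egln3 (ENSMUSG00000035105, chromosome 12, 54178981 to 54203860), an inducible relative, showed the other pattern. It was at 8.88, 8.82 and 9.56 FPKM in Six2-Cre libraries and 6.61, 5.18 and 4.71 in their wild types, with no overlap, and rose by 0.64 ± 0.12 (adjusted p = 0.0195). This call ended without any 1 of Six2-Cre replicates 1 to 3 or wild-type replicate 8 (adjusted p from 0.0600 to 0.0740). In Foxd1-Cre kidneys it was at 4.75, 6.18, 5.12, 4.22 and 5.13 FPKM against 3.22 (lowest), 4.10 (median) and 6.27 (highest), inside the range of the wild types at 5 of 5 libraries (change 0.18 ± 0.13, adjusted p = 0.459).

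Of 13 members for glucose uptake and the first steps of glycolysis 8 rose in Foxd1-Cre kidneys and 0 in Six2-Cre kidneys, where 8.45% and 7.93% of all genes rose. The count of 0 is near the share of all genes and is no result about these members. Aldoa (ENSMUSG00000030695, chromosome 7, 126795234 to 126800751), which splits fructose 1,6-bisphosphate, was at 411, 466, 372, 370.4 and 399 FPKM in Foxd1-Cre libraries against 270.5 (lowest), 298 (median) and 323 (highest). Its lowest mutant stood above its highest wild type, with a change of 0.43 ± 0.06 (adjusted p = 0.000638). In Six2-Cre kidneys it was at 318, 269 and 299 FPKM against 299.7, 271 and 242, overlapping (0.12 ± 0.10, adjusted p = 0.445).

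Tpi1 (ENSMUSG00000023456, chromosome 6, 124810586 to 124814296), which interconverts the 2 triose phosphates, was at 397, 480.2, 374, 391 and 405 FPKM in Foxd1-Cre libraries against 305 (lowest), 326 (median) and 344 (highest), with no overlap and a change of 0.33 ± 0.06 (adjusted p = 0.00261). The Six2-Cre libraries were at 232, 207 and 213 against 221, 193 and 181 FPKM, and replicate 7 of the wild types lay among the mutants (0.13 ± 0.08, adjusted p = 0.345). Pfkfb3 (ENSMUSG00000026773, chromosome 2, 11471433 to 11554077) makes fructose 2,6-bisphosphate, the strongest activator of phosphofructokinase. It was at 15.1, 20.7, 17.2, 15.0 and 20.2 FPKM in Foxd1-Cre libraries against 11.3 (lowest), 12.7 (median) and 13.0 (highest), above every wild type (0.47 ± 0.09, adjusted p = 0.00308). Replicates 2 and 5 were the high libraries. In Six2-Cre kidneys the values of 12.8, 12.9 and 9.51 and, in wild types, 9.45, 7.95 and 12.1 FPKM overlapped (0.24 ± 0.17, adjusted p = 0.426).

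Pfkl (ENSMUSG00000020277, chromosome 10, 77986947 to 78010083), the liver-type subunit of phosphofructokinase and the main one here, was at 94.6, 103, 79.7, 79.3 and 86.1 FPKM in Foxd1-Cre libraries against 55.6 (lowest), 66.7 (median) and 70.8 (highest). The groups did not overlap and the change was 0.43 ± 0.08 (adjusted p = 0.00337). Six2-Cre libraries were at 55.0, 42.9 and 46.7 FPKM against 47.0, 42.3 and 36.7 and overlapped (0.19 ± 0.12, adjusted p = 0.343). Its paralogs were lower per length: Pfkp, the platelet type, rose in Foxd1-Cre kidneys from 2.84 ± 0.265 FPKM (SD, n = 6) to 4.99 ± 1.35 (SD, n = 5), a change of 0.62 ± 0.12 (adjusted p = 0.00563), while Pfkm, the muscle type, was at 24.5 ± 0.910 and 25.7 ± 1.06 FPKM and was not called (0.07 ± 0.04, adjusted p = 0.258). Pfkp shares 748 bases with Pitrm1, which lies antisense to it and had a median of 51.3 FPKM over the libraries, far above Pfkp. Whether reads of Pitrm1 contributed to the rise of Pfkp was not tested.

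The glucose transporter Slc2a1 rose in Foxd1-Cre kidneys, from 39.1 ± 4.86 FPKM (SD, n = 6) to 53.2 ± 7.28 (SD, n = 5; 0.43 ± 0.10, adjusted p = 0.0141), as did Gpi1, which converts glucose 6-phosphate to fructose 6-phosphate, from 115 ± 5.70 to 141 ± 14.3 FPKM (0.28 ± 0.06, adjusted p = 0.00953). In both genes every mutant was above every wild type. Aldoc, a minor aldolase, was called at 1.31 ± 0.268 against 0.883 ± 0.146 FPKM (0.29 ± 0.08, adjusted p = 0.0414). Its groups overlapped, and the call was lost when any 1 of Foxd1-Cre 1, 2 and 5 and of wild types 1, 3, 4 and 6 was left out (adjusted p from 0.0697 to 0.0972) and in a joint fit of all 4 groups (0.0619). The hexokinases, which trap glucose in the cell, were not called: Hk1 was at 19.8 ± 1.71 against 17.6 ± 1.32 FPKM (adjusted p = 0.142) and Hk2 at 19.4 ± 2.81 against 15.8 ± 2.25 FPKM (adjusted p = 0.131). Slc2a3, a high-affinity transporter (0.19 ± 0.10, adjusted p = 0.255), and Pfkfb4 (0.12 ± 0.04, adjusted p = 0.0871) were not called either, although Pfkfb4 was without wild-type replicate 5 (adjusted p = 0.0235) and with libraries rescaled to the same total (0.0304). In Six2-Cre kidneys the changes of the 13 ran from -0.11 (Hk2) to 0.41 (Pfkp), with a median of 0.12.

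Of the 6 members of the later steps, from glyceraldehyde 3-phosphate to pyruvate, 4 rose in Foxd1-Cre kidneys and 0 in Six2-Cre kidneys (8.45% and 7.93% of all genes). Pgk1 (ENSMUSG00000062070, chromosome X, 106187100 to 106203699), the first step of glycolysis that yields ATP, was at 524, 616, 477, 480.4 and 514 FPKM in Foxd1-Cre libraries against 372 (lowest), 412 (median) and 423 (highest). No mutant overlapped a wild type, and the change was 0.37 ± 0.06 (adjusted p = 0.00218). In Six2-Cre kidneys Pgk1 was at 317, 301 and 302 FPKM against 292, 282 and 262; these did not overlap either, but the change of 0.14 ± 0.05 was not called (adjusted p = 0.132).

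Eno1 (ENSMUSG00000063524, chromosome 4, 150236721 to 150248879), the main enolase, was at 621, 631, 549, 559 and 592 FPKM in Foxd1-Cre libraries against 395 (lowest), 463 (median) and 499.7 (highest), a rise without overlap of 0.37 ± 0.06 (adjusted p = 0.00175). With the 99.5% identical Eno1b added to it the change was 0.23 and the call ended (adjusted p = 0.0639), so this rise depends on how reads were divided between the copies. In Six2-Cre kidneys Eno1 was at 283, 239 and 162 FPKM against 198, 229 and 201, with replicate 3 below every wild type and replicates 1 and 2 above all of them (0.09 ± 0.20, adjusted p = 0.808). Pgam1 (ENSMUSG00000011752, chromosome 19, 41911923 to 41918660), phosphoglycerate mutase, was at 399, 446, 380.1, 388 and 392 FPKM against 303 (lowest), 339.8 (median) and 354 (highest) in the Foxd1-Cre comparison and rose by 0.26 ± 0.05 (adjusted p = 0.00412), without overlap. Its copy Pgam1-ps2 was also called (0.24 ± 0.06, adjusted p = 0.0135), and so was the sum of the pair (0.24 ± 0.06, adjusted p = 0.0124). In Six2-Cre kidneys Pgam1 was at 256, 242 and 241 FPKM against 271, 247 and 236, overlapping (-0.03 ± 0.06, adjusted p = 0.814).

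Pkm (ENSMUSG00000032294, chromosome 9, 59656368 to 59679375), which makes pyruvate and a molecule of ATP, was among the most abundant members. It was at 945, 1017, 859, 854 and 909 FPKM in Foxd1-Cre libraries against 692 (lowest), 802 (median) and 816 (highest), and rose without overlap by 0.23 ± 0.06 (adjusted p = 0.0159). In Six2-Cre kidneys it was at 489.9, 466 and 462 FPKM against 492, 464 and 445, an overlap with a change of 0.02 ± 0.05 (adjusted p = 0.850). Gapdh, which is often used as a reference gene, was not called in Foxd1-Cre kidneys, with 2160.3 ± 110.3 FPKM (SD, n = 5) against 1992 ± 75.1 (SD, n = 6) (0.12 ± 0.04, adjusted p = 0.0812). In Six2-Cre libraries it was at 1308 ± 31.0 FPKM (SD, n = 3) against 1529.6 ± 129 (SD, n = 3), the 1 member whose mutants all lay below the wild types; its change of -0.22 ± 0.07 was not called (adjusted p = 0.0892), but was without wild-type replicate 9 (-0.28, adjusted p = 0.0438). With its 7 copies added the Six2-Cre change was -0.12 (adjusted p = 0.388). Eno2, the neuronal enolase, was at 3.49 ± 0.599 against 2.86 ± 0.939 FPKM in the Foxd1-Cre comparison (0.24 ± 0.15, adjusted p = 0.362). Without wild-type replicate 5, its highest wild type, Eno2 was called (0.35, adjusted p = 0.0417).

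All 3 members of the lactate and pyruvate branch rose in Foxd1-Cre kidneys (8.45% of all genes) and 0 in Six2-Cre kidneys (7.93%). In Foxd1-Cre kidneys the branch had the largest median change of any role (0.62). Slc16a3 (ENSMUSG00000025161, chromosome 11, 120948480 to 120960868), the transporter MCT4 that exports lactate, was at 41.4, 63.2, 38.9, 39.0 and 48.3 FPKM in Foxd1-Cre libraries against 18.3 (lowest), 25.9 (median) and 27.6 (highest). Replicate 2 was highest, and the lowest mutant was well above the highest wild type (0.90 ± 0.14, adjusted p = 0.00122). In Six2-Cre kidneys it was at 18.8, 18.2 and 18.6 FPKM against 16.1, 14.2 and 11.4, also without overlap, but the change of 0.40 ± 0.12 was not called (adjusted p = 0.0743; 0.0470 without wild-type replicate 7).

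Ldha (ENSMUSG00000063229, chromosome 7, 46841475 to 46855627), which turns pyruvate into lactate, was at 837, 1009, 775, 800.1 and 854 FPKM in Foxd1-Cre libraries against 564 (lowest), 636 (median) and 659 (highest). Again no library overlapped, and the change was 0.45 ± 0.07 (adjusted p = 0.000739). Six2-Cre libraries were at 493, 436 and 431 FPKM against 427, 383 and 350.0, apart by a narrow margin and not called (0.23 ± 0.09, adjusted p = 0.146). Pdk1 (ENSMUSG00000006494, chromosome 2, 71873224 to 71903858), the kinase that switches off pyruvate dehydrogenase and so holds pyruvate back from the mitochondria, was at 26.2, 31.6, 20.8, 19.7 and 22.6 FPKM in Foxd1-Cre libraries against 12.8 (lowest), 15.4 (median) and 16.7 (highest). The rise was 0.62 ± 0.11 (adjusted p = 0.00271), without overlap and with replicates 1 and 2 highest. In Six2-Cre kidneys Pdk1 was at 20.2, 16.4 and 18.3 FPKM against 17.3, 15.9 and 14.6, which overlap (0.19 ± 0.10, adjusted p = 0.255).

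Of 11 HIF targets outside glycolysis 6 rose in Foxd1-Cre kidneys and 3 in Six2-Cre kidneys (8.45% and 7.93% of all genes), and these 3 rose in both. P4ha1 (ENSMUSG00000019916, chromosome 10, 59323296 to 59373304), the alpha subunit of the enzyme that hydroxylates proline in collagen, was at 125, 137, 131, 138 and 136 FPKM in Foxd1-Cre libraries against 61.0 (lowest), 77.2 (median) and 104 (highest), a rise of 0.74 ± 0.11 (adjusted p = 0.000610). The Six2-Cre values were 104, 89.2 and 103 FPKM against 72.8, 69.4 and 79.4 (0.41 ± 0.08, adjusted p = 0.0213). The groups were separate in both comparisons, but the Six2-Cre call was lost when mutant 1 or 3, or wild type 7 or 8, was left out (adjusted p from 0.0677 to 0.0786).

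Its relative P4ha2 (ENSMUSG00000018906, chromosome 11, 54100095 to 54131665) was at 15.9, 13.5, 14.4, 14.2 and 14.1 FPKM in Foxd1-Cre libraries against 7.90 (lowest), 10.1 (median) and 11.97 (highest) (0.49 ± 0.09, adjusted p = 0.00296). The Six2-Cre values were 13.8, 11.7 and 13.0 FPKM against 8.15, 8.62 and 10.2 (0.48 ± 0.10, adjusted p = 0.0293). Neither pair of groups overlapped, and the 2 changes were of nearly the same size. The Six2-Cre call ended without any 1 of its mutants or wild-type replicate 7 or 8 (adjusted p from 0.0508 to 0.0971).

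Bnip3 (ENSMUSG00000078566, chromosome 7, 138890836 to 138909519), a mitochondrial membrane protein that marks mitochondria for removal, was at 46.7, 66.8, 39.99, 37.5 and 45.5 FPKM in Foxd1-Cre libraries against 23.5 (lowest), 26.8 (median) and 28.8 (highest). Replicate 2 was far above the rest, but the lowest mutant still cleared every wild type (0.78 ± 0.12, adjusted p = 0.00105). The Six2-Cre libraries were at 33.3, 36.1 and 35.6 FPKM against 23.4, 26.7 and 21.9, again separate (0.53 ± 0.08, adjusted p = 0.00973). Both calls held without any 1 library. Bnip3l, its paralog, which also clears mitochondria from maturing red cells, was at 81.1 ± 5.31 FPKM (SD, n = 5) against 71.3 ± 3.64 (SD, n = 6) in the Foxd1-Cre comparison. Its groups overlapped, and its call (0.18 ± 0.05, adjusted p = 0.0264) was lost when Foxd1-Cre 1, 2 or 3, or wild type 1, was left out (adjusted p from 0.0548 to 0.0588) and when libraries were rescaled to the same total (0.0515). Of 7 erythroid markers 3 fell there, with a summed level of 3192 to 5260.4 FPKM against 3917 to 7893 over 8 genes, and in Six2-Cre kidneys 6 fell and 1, Epor (named after its value was seen), rose, with 3834 to 4737 FPKM against 7549 to 9142. No erythroid marker was at 0 in any group, and the part of red cells in the result for Bnip3l was not tested.

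Ndrg1 (ENSMUSG00000005125, chromosome 15, 66929318 to 66969640), a stress-responsive gene, was at 4.42, 4.96, 4.13, 4.66 and 5.01 FPKM in Foxd1-Cre libraries against 3.60 (lowest), 3.85 (median) and 4.00 (highest). Replicate 3 of the mutants was just above the highest wild type, and the change of 0.22 ± 0.05 was called (adjusted p = 0.0103). Six2-Cre libraries were at 4.96, 4.10 and 4.93 FPKM against 3.18, 3.69 and 3.64, without overlap and not called (0.33 ± 0.10, adjusted p = 0.0910). Adm, the vasodilator adrenomedullin, was low throughout, at 1.31 ± 0.157 against 0.990 ± 0.140 FPKM in the Foxd1-Cre comparison. Its call (0.22 ± 0.06, adjusted p = 0.0491) held only when Foxd1-Cre 1 or wild type 5 was the library left out, and was lost without any other (adjusted p from 0.0704 to 0.126); a pseudocount of 0.1 gave 0.0520 and a joint fit of all 4 groups 0.302. In Six2-Cre kidneys Adm was at 1.96, 1.07 and 0.681 FPKM against 0.549, 0.280 and 0.291; with 1 read per kilobase worth 0.156 to 0.172 FPKM these are low values, and Adm was not called (0.67 ± 0.23, adjusted p = 0.116).

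Vegfa (ENSMUSG00000023951, chromosome 17, 46016993 to 46032369), the main growth factor for blood vessels, turned on 1 library. Foxd1-Cre libraries were at 78.2, 67.0, 69.0, 66.8 and 82.9 FPKM, and wild-type replicates 1 to 6 at 51.1, 45.4, 44.1, 54.1, 89.6 and 49.2. Wild-type replicate 5 lay above every mutant, whereas the other wild types lay below all of them. The change was 0.42 ± 0.16 with all libraries (adjusted p = 0.114) and 0.57 without replicate 5 (adjusted p = 0.000488). In Six2-Cre kidneys Vegfa was at 47.0, 35.3 and 39.6 FPKM against 42.2, 36.2 and 33.6, which overlap (0.12 ± 0.13, adjusted p = 0.594).

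The remaining 4 targets were not called in either mutant with all libraries. In the Foxd1-Cre comparison Kdm3a, a histone demethylase, was at 28.5 ± 2.91 against 24.9 ± 0.999 FPKM, Ddit4, an inhibitor of mTORC1, at 52.9 ± 9.16 against 41.4 ± 5.66, Ankrd37 at 10.5 ± 1.41 against 8.70 ± 0.726, and Higd1a, a mitochondrial protein, at 29.1 ± 2.88 against 25.6 ± 1.33 (adjusted p from 0.0679 to 0.0932). Each of the 4 was called without Foxd1-Cre replicate 4, the library with the lowest value in 18 of the 37 members (adjusted p from 0.0164 to 0.0478), and Higd1a also with libraries rescaled to the same total (0.0493). In Six2-Cre kidneys their changes ran from -0.43 (Ankrd37) to 0.21 (Kdm3a).

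**Figure D2:**
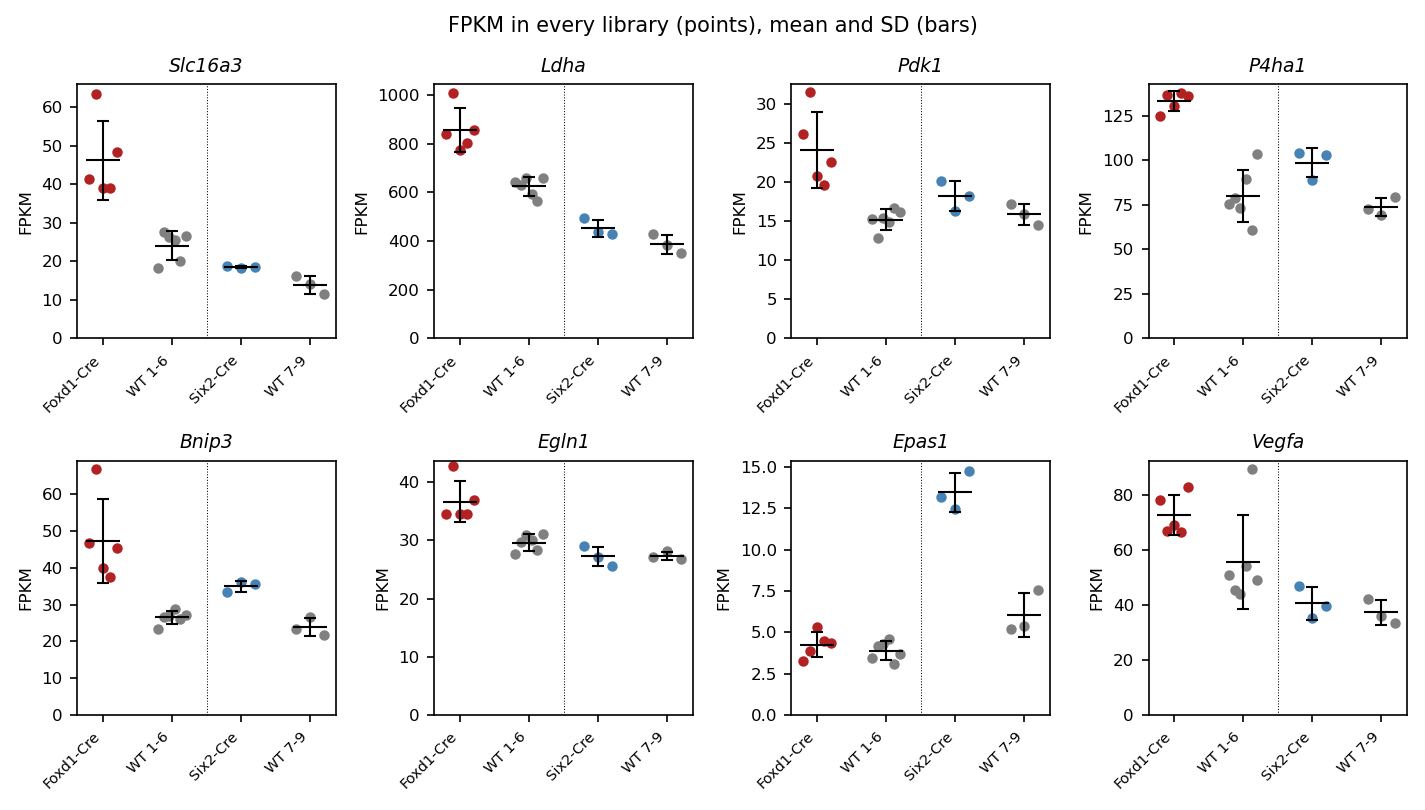
FPKM of 8 members in every library, with the mean and SD of each group; a dotted line parts the 2 library sets, whose levels are not compared. For Slc16a3, Ldha, Pdk1, P4ha1, Bnip3 and Egln1 every Foxd1-Cre library lies above every wild type of its set. Every Six2-Cre library lies above every wild type of its set for Slc16a3, Ldha, P4ha1, Bnip3 and Epas1. For Vegfa wild-type replicate 5 (89.6 FPKM) lies above all Foxd1-Cre libraries.

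The members did not move evenly across libraries. The mean of log2(FPKM + 1) over the 37 members was 5.30 to 5.60 in Foxd1-Cre libraries and 5.04 to 5.13 in their wild types, and 4.96 to 5.04 in Six2-Cre libraries and 4.78 to 4.87 in theirs. Foxd1-Cre replicate 2 held the highest value of its group for 28 members and wild-type replicate 5 the lowest of its group for 16, but also the highest for 8. Without Foxd1-Cre replicate 2 the count of members that rose was 19, and without wild-type replicate 5 it was 25. Of the 22 called members 19 were called without any 1 library, and the exceptions were Aldoc, Bnip3l and Adm. Of the 5 in Six2-Cre kidneys Epas1 and Bnip3 were.

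**Figure D3:**
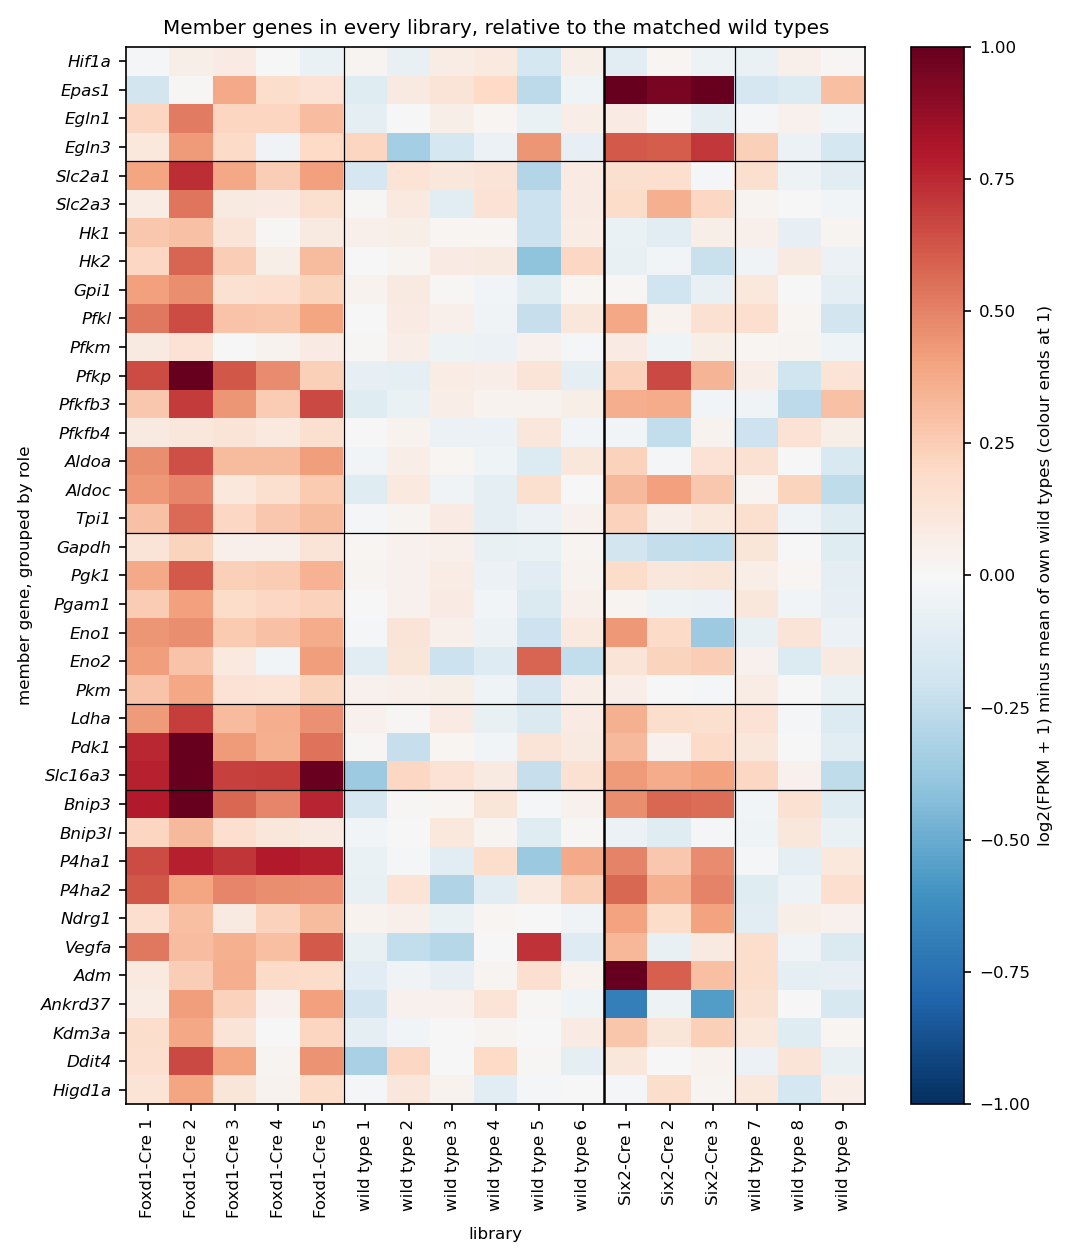
Each of the 37 members (rows, by role) in each of the 17 libraries (columns), as log2(FPKM + 1) minus the mean of the wild types of the same library set; red is higher, blue lower, and the colour ends at 1. The Foxd1-Cre columns are red in most rows and darkest in replicate 2, while Epas1 and Egln3 are red in all 3 Six2-Cre columns.

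Whether the 2 mutants differed was tested directly, as the Foxd1-Cre change minus the Six2-Cre change. The Foxd1-Cre change was the larger in 30 of 37 members, with a median difference of 0.23 for the members and 0.01 for all 13810 genes. The difference passed the test in 5 members: 4 with a larger Foxd1-Cre change (10.8%, against 5.76% of all genes) and 1 with a larger Six2-Cre change (2.7%, against 5.24%). At an unadjusted p under 0.05 there were 17 members. The share of all genes at that threshold is not given here, so this count is no result about the members. The member with the larger Six2-Cre change was Epas1 (-0.95 ± 0.18, adjusted p = 0.00359), whose call held without any 1 library. Egln1 (0.30 ± 0.08, adjusted p = 0.0256) and Gpi1 (0.37 ± 0.10, adjusted p = 0.0231) each lost their call when Six2-Cre 2 or 3, or wild type 7 or 8, was left out (adjusted p from 0.0569 to 0.0799 and from 0.0645 to 0.0706). Gapdh (0.34 ± 0.08, adjusted p = 0.0213) lost it without any 1 Six2-Cre library or wild-type replicate 8 (from 0.0586 to 0.0953), and Pgam1 (0.28 ± 0.08, adjusted p = 0.0303) when Foxd1-Cre 2, Six2-Cre 2 or 3, or wild type 8 was left out (from 0.0543 to 0.104) or without the variance trend (0.0581). With their copies added neither difference was called, although that of Pgam1 was larger (Gapdh 0.23, adjusted p = 0.174; Pgam1 0.45, adjusted p = 0.0755). For most members called in Foxd1-Cre kidneys alone, among them Slc16a3 (0.50 ± 0.18, adjusted p = 0.0966), Pdk1 (0.43 ± 0.15, adjusted p = 0.0691), Ldha (0.22 ± 0.11, adjusted p = 0.254) and Aldoa (0.31 ± 0.11, adjusted p = 0.116), a difference between the mutants was not shown with all libraries. Without wild type 9 the difference was called for Slc16a3 (adjusted p = 0.0197) and Aldoa (0.0453). That of Pdk1 was called without Foxd1-Cre 4 (0.0356) or Six2-Cre 1 (0.0445). Ankrd37 (0.67 ± 0.20, adjusted p = 0.0706) was called without Six2-Cre 2 (0.00783).

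The balance between member paralogs is given here as a gene's share of the summed FPKM of the genes named, without other relatives and without a test. Bnip3 made up 32.7% to 42.8% of Bnip3 and Bnip3l together in Foxd1-Cre libraries and 25.1% to 28.5% in their wild types, and 34.3% to 37.1% in Six2-Cre libraries against 25.6% to 27.0%. In both comparisons the ranges did not overlap. Epas1 made up 15.9% to 19.0% of Hif1a and Epas1 together in Six2-Cre libraries against 7.34% to 10.3%, and 6.49% to 9.48% in Foxd1-Cre libraries against 6.60% to 8.42%. Egln3 made up 23.5% to 27.2% of Egln1 and Egln3 in Six2-Cre libraries against 15.0% to 19.6%, and 10.9% to 12.9% against 9.76% to 18.2% in the Foxd1-Cre comparison. Of Pfkl, Pfkm and Pfkp together Pfkl made up 72.9% to 75.2% in Foxd1-Cre libraries and 66.1% to 72.5% in their wild types, and Pfkm 19.7% to 23.1% and 24.9% to 30.1%. Pfkfb3 made up 78.2% to 83.0% of Pfkfb3 and Pfkfb4 in Foxd1-Cre libraries against 74.7% to 78.1%, a narrow gap, and overlapped in the Six2-Cre comparison. Shares within the glucose transporters, hexokinases, aldolases, enolases and collagen prolyl hydroxylases overlapped in both comparisons.

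The wider pathways were read from lists of genes that are not members. Of 48 other HIF pathway and hypoxia genes tested, Foxd1-Cre kidneys had 17 (35.4%) higher and 2 lower, against 8.45% and 4.82% of all genes. Six2-Cre kidneys had 12 (25.0%) higher and 4 lower, against 7.93% and 5.84%. The medians were 0.07 and 0.14. The counts of lower genes are near the shares of all genes and are no result about this list. In Foxd1-Cre kidneys Ier3 (0.54 ± 0.07, adjusted p = 0.000238), Vldlr, a lipoprotein receptor (0.59 ± 0.08, adjusted p = 0.000247), and Ak4, a mitochondrial adenylate kinase (0.54 ± 0.09, adjusted p = 0.00108), rose. Stc1, the secreted stanniocalcin, fell there from 9.37 ± 0.823 to 6.09 ± 0.219 FPKM (-0.55 ± 0.06, adjusted p = 3.6e-05). In Six2-Cre kidneys Ndufa4l2, a mitochondrial protein known as a HIF target, rose from 0.898 ± 0.404 to 6.05 ± 1.136 FPKM (1.90 ± 0.20, adjusted p = 0.00336). Loxl2, a matrix cross-linking enzyme (0.79 ± 0.05, adjusted p = 0.000926), and the VEGF receptor Flt1, which is also 1 of the 9 endothelial markers (0.76 ± 0.09, adjusted p = 0.00393), rose too. Tfrc, the transferrin receptor that red cell precursors carry in high amounts, fell (-0.46 ± 0.05, adjusted p = 0.00347).

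Other lists of energy metabolism were read in the same way. The shares of all genes given above apply to every list below, and counts near them are no result about a list. Of 22 other glycolytic isozymes and neighbouring steps, Foxd1-Cre kidneys had 2 higher (9.09%, against 8.45% of all genes) and 2 lower. Pgm1 (0.41 ± 0.09, adjusted p = 0.0129) and Gys1 (0.25 ± 0.06, adjusted p = 0.0172), of glycogen metabolism, rose, and Bpgm (-0.22 ± 0.05, adjusted p = 0.00756) and Ldhb (-0.20 ± 0.05, adjusted p = 0.0263), the other main lactate dehydrogenase, fell. In Six2-Cre kidneys 0 rose and 2 fell, the muscle enolase Eno3 (-0.95 ± 0.10, adjusted p = 0.00319) and the lactate transporter Slc16a1 (-0.33 ± 0.06, adjusted p = 0.0222).

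Of 21 genes of the TCA cycle and pyruvate dehydrogenase 0 were called by limma in either mutant, with medians of -0.03 in Foxd1-Cre and -0.12 in Six2-Cre kidneys. Of 25 respiratory chain genes none rose in Foxd1-Cre kidneys and 2 fell, Cycs (-0.13 ± 0.03, adjusted p = 0.0193) and Uqcrb (-0.13 ± 0.03, adjusted p = 0.0199). In Six2-Cre kidneys 3 of the 25 fell, Ndufv1 (-0.27 ± 0.04, adjusted p = 0.0115), Uqcrb and Cox5a. Of 7 pentose phosphate genes 0 were called in either mutant, with medians of -0.04 and -0.07.

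**Figure D4:**
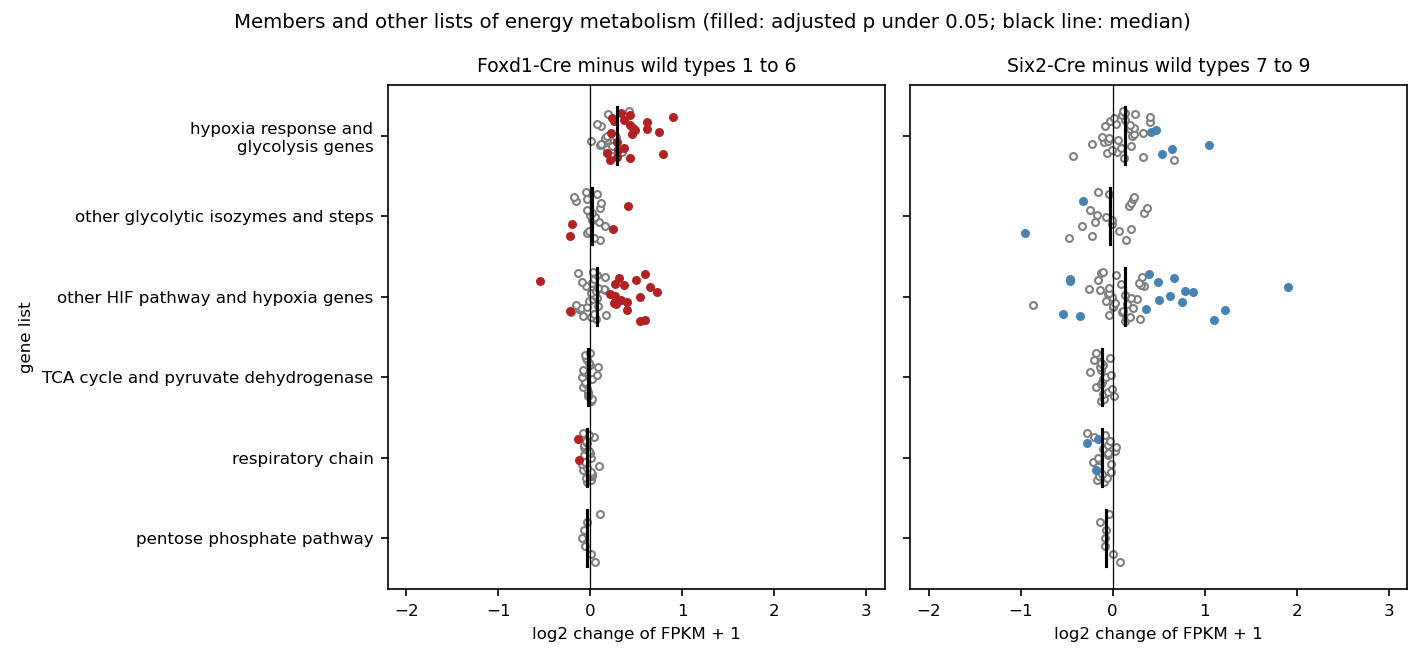
Change of each gene on the log2(FPKM + 1) scale for the members and 5 other lists of oxygen and energy metabolism, in Foxd1-Cre (left) and Six2-Cre kidneys (right); filled points have an adjusted p under 0.05 and black lines are list medians. The members' median is 0.28 on the left, while the medians of the TCA cycle, respiratory chain and pentose phosphate lists are below 0 in both panels.

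Other cell types also moved with the groups. In Foxd1-Cre kidneys 4 of 4 cortical stroma and 4 of 6 nephron progenitor markers fell and 2 of 4 cartilage and bone markers rose; the summed level of the cartilage and bone markers was 53.8 to 64.0 FPKM against 27.3 to 43.3. Of 5 neural markers 1 rose and 1 fell there, with a median change of -0.04. The summed level of the neural markers, over 7 genes, was 30.0 to 41.4 FPKM against 18.4 to 22.0, without overlap, so the sum does not stand for the whole list. In Six2-Cre kidneys 5 of 6 nephron progenitor and 5 of 7 ureteric bud markers fell, and 3 of 7 macrophage and 3 of 5 neural markers rose, the neural ones with a summed level of 24.9 to 38.7 FPKM against 14.9 to 23.1. Of 4 cartilage and bone markers 1 rose there, with a summed level of 52.2 to 53.1 FPKM against 39.7 to 46.7. No cell type list was wholly absent, and the part of these cells in the members' changes was not tested.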

How the data were processed

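RNA of dissected kidneys was sequenced in 17 libraries. The tools listed in the submitters' processing notes are bcl2fastq 2.17.1.14 for base calling and Salmon for quantification, with GRCm38 as the build. Values came as 1 deposited table of FPKM; how transcripts were summed to genes, the annotation, any scaling between libraries and the use of strand are not given in the sources used here. Total FPKM per library ran from 799273 to 963729. FPKM is not a count, so depth was read only as the smallest step between values, which covers counting error only.

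Gene IDs were matched to GENCODE M21 (GRCm38), where 24189 had a symbol. IDs with 1 FPKM or more in at least 3 of 17 libraries were kept (14014), and values were transformed as log2(FPKM + 1), which understates the change of low genes. In limma 3.58.1 (R 4.3.3) a linear model with a variance trend was used, separately for Foxd1-Cre with wild types 1 to 6 and for Six2-Cre with wild types 7 to 9, on genes above 0 in at least 1 library of the fit. Tests were two-sided with Benjamini-Hochberg adjustment over all genes, and a call was an adjusted p under 0.05. The difference of the mutant changes used the added squared errors and Satterthwaite degrees of freedom. The scripts were tested on simulated data. Errors beside log2 changes are standard errors and those beside FPKM are SD.

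The members, gene lists and comparisons were chosen with earlier results of these data known. By rule, library values are printed for the regulators and for the 4 members of each other role with the smallest unadjusted p over both comparisons, and up to 4 genes are named per other list. Library values of Adm in Six2-Cre and of Vegfa are printed beyond that rule, chosen after they were seen. The 17 other lists covered the pathways, handling, proliferation, Wnt targets and 9 sets of cell type markers. The alternatives tried were another pseudocount, filters, scalings, a joint fit, no variance trend, a replicate block, each library left out, and, chosen after seeing the data, the addition of near-identical copies.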

Additional observations from a re-analysis of the deposited data

Results flagged for a closer look

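A library stood apart from the rest of its group, by Dixon's test at the 95% level, in 5 of 74 member-by-group ranges; groups of 3 were not tested, so these cover Foxd1-Cre and wild types 1 to 6, and chance alone gives about 1 in 20. Foxd1-Cre replicate 2 was high for Slc2a3 (5.61 FPKM) and Pgam1 (446 FPKM). Wild-type replicate 5 was low for Hk1 (14.9 FPKM) and high for Eno2 (4.66 FPKM) and Vegfa (89.6 FPKM).

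For 5 members the change in Foxd1-Cre kidneys differed from that in Six2-Cre kidneys by the test of the difference itself. As Foxd1-Cre change minus Six2-Cre change on the log2 scale, these were Epas1 (-0.95), Egln1 (0.30), Gpi1 (0.37), Gapdh (0.34) and Pgam1 (0.28).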

How the results depend on the processing

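The count of members called in Foxd1-Cre kidneys, 22, lay between 18 (mean of at least 5 FPKM) and 23 (libraries rescaled to the same total) under the other settings, between 19 and 25 with each library left out, and 0 fell in any of them. In Six2-Cre kidneys the count of 5 was 9 in a joint fit of 4 group means (7 rose and 2 fell, Gapdh and Ankrd37), between 2 and 6 with each library left out, and 5 under every other setting. The count of 5 differences was 3 with near-identical copies added, from 4 to 6 under the other settings, and between 1 and 9 with each library left out. Under settings other than a left-out library, calls in Foxd1-Cre kidneys were lost at least once for Adm, Aldoc, Bnip3l, Eno1 and Pfkp and gained for Higd1a and Pfkfb4, calls in Six2-Cre kidneys were gained in the joint fit for Adm, Ankrd37, Gapdh and Ndrg1, and the differences of Gapdh and Pgam1 lost theirs; no called value reversed in any of them. With the replicate block, which leaves out wild-type replicate 6, 19 members were called in Foxd1-Cre kidneys and 6 differed between the mutants; Adm (adjusted p = 0.122), Aldoc (0.0849), Bnip3l (0.0525) and Pfkp (0.0548) were not called and Higd1a was (0.0345). Among the differences, calls were gained for P4ha1 with this block (adjusted p = 0.0310) and for Ankrd37 in the joint fit (0.0214). The deviations of same-numbered libraries correlated at 0.022 to 0.099, so the shared numbers do not pair the libraries, and Six2-Cre and wild types 7 to 9 share no number. Depth limits the low members in the Six2-Cre comparison, Aldoc and Adm above all. The count of 18 leaves out Adm, Aldoc, Ndrg1 and Pfkp, whose means were under 5 FPKM, and no member tested there lost its call. The causes of the other changes in count were not tested.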

Other observations

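The handling of tissue was followed through 11 immediate early and stress genes. In Foxd1-Cre kidneys 1 rose, Jun (0.29 ± 0.08, SE, limma adjusted p = 0.0409), and in Six2-Cre kidneys 3 rose, Egr1 (0.84 ± 0.11, adjusted p = 0.00577), Zfp36 (0.50 ± 0.10, adjusted p = 0.0253) and Dusp1 (0.37 ± 0.08, adjusted p = 0.0305). Their summed level was 109 to 112 FPKM in Six2-Cre libraries against 93.7 to 95.6 in their wild types, and 112 to 133 against 106 to 128 in the Foxd1-Cre comparison, over 14 genes. Of 14 proliferation genes 0 rose in either mutant, 1 fell in Foxd1-Cre kidneys (Mcm5, -0.13 ± 0.03, adjusted p = 0.0290) and 2 fell in Six2-Cre kidneys (Mcm2, -0.19 ± 0.05, adjusted p = 0.0392, and Rrm2, -0.19 ± 0.04, adjusted p = 0.0406). Of 4 skeletal muscle markers 0 were called in either mutant. Of 7 macrophage markers 0 were called in Foxd1-Cre kidneys, and of 7 ureteric bud markers 1 rose and 1 fell there. The part of these genes in the members' changes was not tested.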
